A study of Rattus norvegicus with 12 samples.

Results

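The genes of the proteasome subunits were followed in heart tissue of rats with failing hearts and of control rats. The members were taken by name: every probe set of the array annotated to exactly 1 gene whose symbol begins with Psma, Psmb, Psmc, Psmd or Psmg, leaving out the inducible subunits Psmb8, Psmb9 and Psmb10. This gave 49 probe sets of 38 genes, out of 31042 probe sets and 14217 named genes. The core particle had 15 probe sets of 13 genes, 7 of them alpha and 6 beta subunit genes. The regulatory particle had 25 probe sets of 17 genes, 6 of them ATPase and 11 non-ATPase genes. The assembly chaperones had 8 probe sets of 7 genes. The remaining member, Psmc3ip, shares only the prefix: it encodes a partner protein of meiotic recombination and no proteasome subunit, and it is kept out of all medians of the parts below. Its values were 8.56 ± 0.24 in failing and 8.61 ± 0.43 in control hearts (log2 intensity, mean ± SD, n = 6 each). Expression was measured with 1 array for each of 12 hearts, 6 labelled failing and 6 labelled control, described as biological replicates in the extraction protocol. The study is of the spontaneously hypertensive rat, an inbred strain with high blood pressure, and its passage from a compensated enlarged heart to failure. Which strain and age each group had is not stated in the labels, and the protocol also names hearts treated with captopril or with captopril and butyrate, which are not analysed here.

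The proteasome is the large protease that degrades proteins tagged with ubiquitin. Its barrel-shaped core particle is built of alpha subunit rings, which gate the entry, and beta subunit rings, which carry the proteolytic sites. A regulatory particle caps the barrel: its base holds a ring of ATPases that unfold substrates, and its lid and base together recognise ubiquitin chains and remove them. Subunits are needed in fixed proportions, and dedicated chaperones put the rings together. In heart muscle the system turns over sarcomere and signalling proteins.

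All arrays had been scaled alike, with a trimmed mean intensity between 500.19 and 500.23, and Spearman correlations between arrays ranged from 0.915 to 0.945. Cardiomyocyte markers were bright, as the tissue label calls for: 7 of 8 were measured and all 7 lay among the brighter probe sets, with no value under 7709.9 (linear intensity). In whole tissue, fewer cells of a type and less RNA per cell cannot be told apart. The cardiomyocyte markers summed to between 184896 and 297449 in failing and between 181977 and 303333 in control hearts (linear intensity). Of these 7 markers 1 lay above 0 in the difference (median difference -0.16, log2). The 6 macrophage markers, all measured, all lay above 0 (median difference 0.83, log2), with sums from 5076 to 15908 in failing and from 4035 to 6949 in control hearts. The 6 fibroblast markers also all lay above 0 (median difference 0.40), with sums from 47124 to 91850 and from 38833 to 61242. The 4 smooth muscle markers all lay above 0 (0.80), with sums from 2522 to 5885 and from 1598 to 2848. Of the endothelial markers 3 of 4 lay above 0 (0.32), with sums from 9354 to 14588 and from 7680 to 10120. Lymphocyte markers were dim in both groups, with sums from 79 to 182 and from 90 to 199. No measured marker was at 0 on any array. The part of these cell types in the proteasome values was not tested.

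No proteasome probe set was called by limma (adjusted p under 0.05) when all 31042 probe sets were fitted, where the share called was 0% in either direction and 4 members had an unadjusted p under 0.05. Dim probe sets vary more between hearts than bright ones, so a second limma fit was made over the brighter 15521 probe sets, those with a mean log2 intensity over the 12 arrays of at least 6.94. This fit called 2.76% of probe sets higher and 1.48% lower in failing hearts. It called 0 of the 44 proteasome probe sets that lay among the brighter ones, the lowest adjusted p among them being 0.0798. At an unadjusted p under 0.05 this fit had 1 of them higher, against 13.2% of all brighter probe sets, and 5 lower, against 12%. At an unadjusted p under 0.05 over all probe sets, 1 of 49 members was higher (2.04%, against 7.25% of all probe sets) and 3 of 49 were lower (6.12%, against 7.23%). The failing and control hearts overlapped in all 49 members, whereas groups did not overlap, with failing hearts higher, in 0.989% of all probe sets, and with failing hearts lower in 0.535%. The differences were small: over the 44 brighter members they ran from -0.35 to 0.33 (log2, failing minus control). The 95% interval lay within a 1.5-fold change either way for 39 of these 44, against 48.5% of all brighter probe sets, whose median SE was 0.172 against 0.12 for the members.

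The signs of these small differences were then read by part. All 13 brighter probe sets of the core particle, 1 for each of its 13 genes, lay below 0, with a median of -0.19 (log2), or -12.4%. Of the 23 brighter probe sets of the regulatory particle, 12 lay below and 11 above 0, with a median of -0.001. Over all brighter probe sets 50.1% lay below 0, with a median of -0.0002, and over all probe sets 52.6% did. Among the 3724 probe sets at mean levels between 10.18 and 13.47 (log2), the range of the core members, 54.1% lay below 0 (median -0.028), and among the 20 regulatory probe sets in that range 11 did (median -0.013). The 13 core probe sets are not 13 separate pieces of evidence, since most of them vary together from heart to heart, as given further on. No test was made of the parts as lists.

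**Figure D1:**
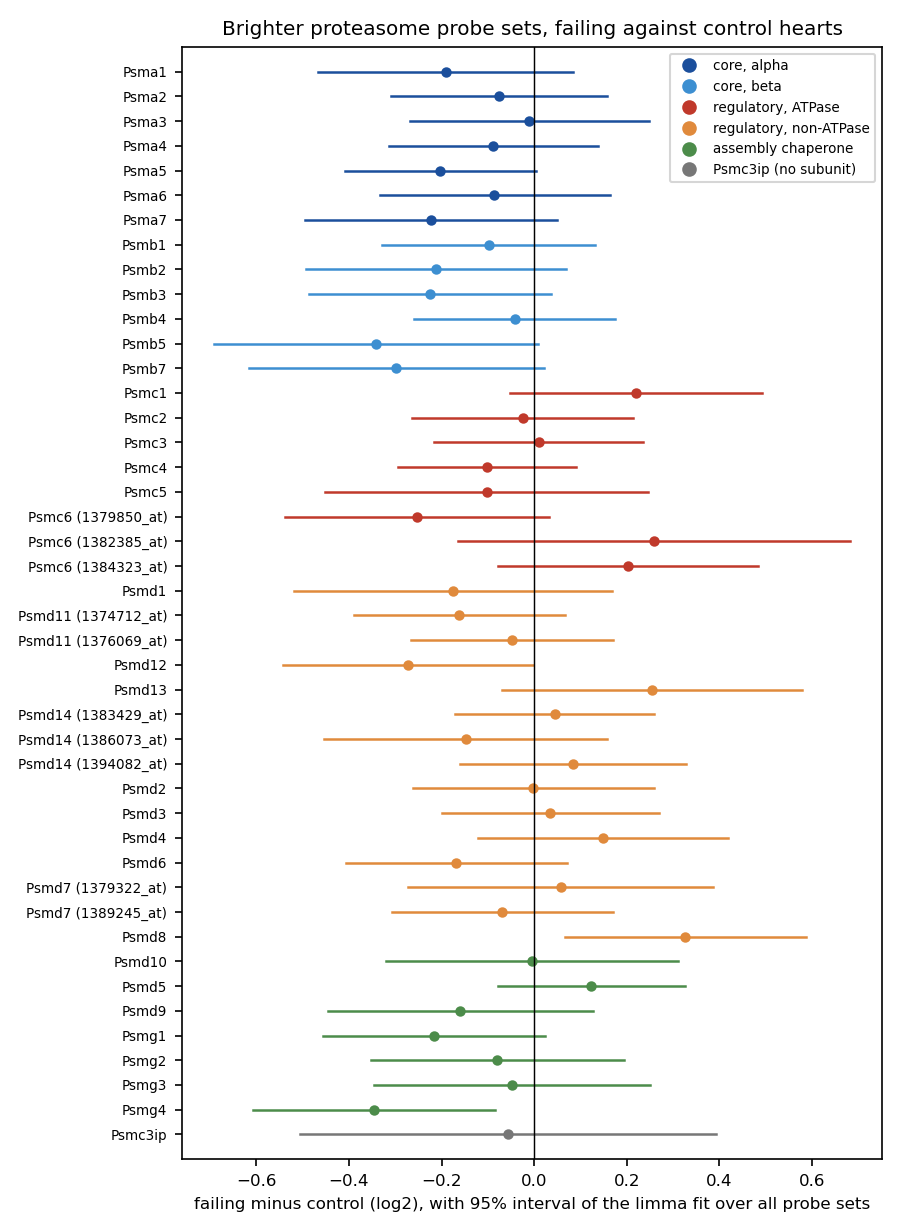
Difference between failing and control hearts (log2, points) with its 95% interval (lines) for the 44 brighter proteasome probe sets, coloured by part; probe set names are given where a gene has several. All 13 core points lie left of 0, whereas the 23 regulatory points lie on both sides, from -0.27 to 0.33.

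The alpha subunits form the outer rings of the core. Their 7 probe sets ran from -0.22 for Psma7 to -0.01 for Psma3, with a median of -0.09, and -0.14 without control replicate 4. Psma5 had the smallest p among them. It lay between 11.51 and 11.65, with a median of 11.56, in failing hearts and between 11.64 and 11.89, with a median of 11.78, in control hearts (log2 intensity). All failing hearts thus lay below the control median and 5 of 6 below the lowest control heart, control replicate 5. The difference was -0.20 ± 0.09 (SE), or -13.1%, with an interval from -0.41 to 0.003, and it did not pass (limma adjusted p = 0.351 over all probe sets and 0.166 among the brighter ones). Psma7 averaged 12.39 ± 0.17 over the failing and 12.61 ± 0.17 over the control hearts (mean ± SD, n = 6 each), with 4 of 6 failing hearts below the lowest control heart. Psma1 differed by -0.19 ± 0.13 (SE), and Psma2, Psma4 and Psma6 by -0.08 to -0.09. A probe set assigned to Psma3 and its near-identical relative Psma3l together, outside the members, gave -0.04 ± 0.14 (SE).

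The beta subunits form the inner rings, and 3 of them carry the protease sites: Psmb5 the chymotrypsin-like, Psmb6 the caspase-like and Psmb7 the trypsin-like one. The 6 brighter beta probe sets had a median of -0.22, or -14.1%. Psmb5 had the largest difference of the core among the brighter probe sets. It lay between 12.19 and 12.87, with a median of 12.43, in failing hearts and between 12.39 and 13.17, with a median of 12.81, in control hearts (log2 intensity). The groups overlapped through failing replicate 5, the highest failing heart, and control replicate 4, the lowest control heart. The difference was -0.34 ± 0.16 (SE), or -21.1%, with an interval from -0.69 to 0.01 (limma adjusted p = 0.353 over all probe sets and 0.168 among the brighter ones). Psmb7 lay between 12.12 and 12.54, with a median of 12.33, in failing hearts and between 12.18 and 12.90, with a median of 12.69, in control hearts. All failing hearts lay below the control median, and control replicate 4 again lay among the failing hearts. Its difference was -0.30 ± 0.15 (SE), or -18.7% (limma adjusted p = 0.374 over all probe sets and 0.186 among the brighter ones). Without control replicate 4 it passed among the brighter probe sets, at -0.39 with an adjusted p of 0.0387, where 6.75% of brighter probe sets were called lower against 1.48% with all hearts. Control replicate 4 also had the lowest array weight of the 12 hearts (0.548) and the highest median intensity (144.2). Its 3' minus 5' signal of control probe sets, a measure of RNA integrity, was the lowest of the 12 (0.36, log2). Lower values of this measure stand for more intact RNA. Its marker sums were the lowest of the control hearts for cardiomyocytes (181977) and fibroblasts (38833) and the highest of them for macrophages (6949) and endothelium (10120, linear intensity). The part of these in its proteasome values was not tested. The probe set for Psmb6 is assigned to the related gene Psmb6l1 too and so is no member. It read between 11.60 and 11.79, with a median of 11.71, in failing hearts and between 11.70 and 12.22, with a median of 12.03, in control hearts. Its difference was -0.28 ± 0.12 (SE), with a limma adjusted p of 0.304 over all probe sets and 0.132 among the brighter ones. The probe sets of the 3 protease subunits thus differed by -17.7% to -21.1% without passing the adjusted threshold. Among the structural beta subunits, Psmb3 gave -0.23 ± 0.12 and Psmb2 -0.21 ± 0.13 (SE), whereas Psmb1 and Psmb4 gave -0.10 ± 0.11 and -0.04 ± 0.10. Of 2 further Psmb5 probe sets, both dim, 1 read higher (0.59 ± 0.46) and 1 lower (-0.89 ± 0.78, SE), at mean levels of 3.30 and 5.29 (log2), far below the level at which a probe set counts as brighter. With 1 heart left out the first ran from 0.30 (without failing replicate 6) to 0.77 (without failing replicate 1) and the second from -1.41 (without control replicate 4) to -0.41 (without failing replicate 4).

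**Figure D2:**
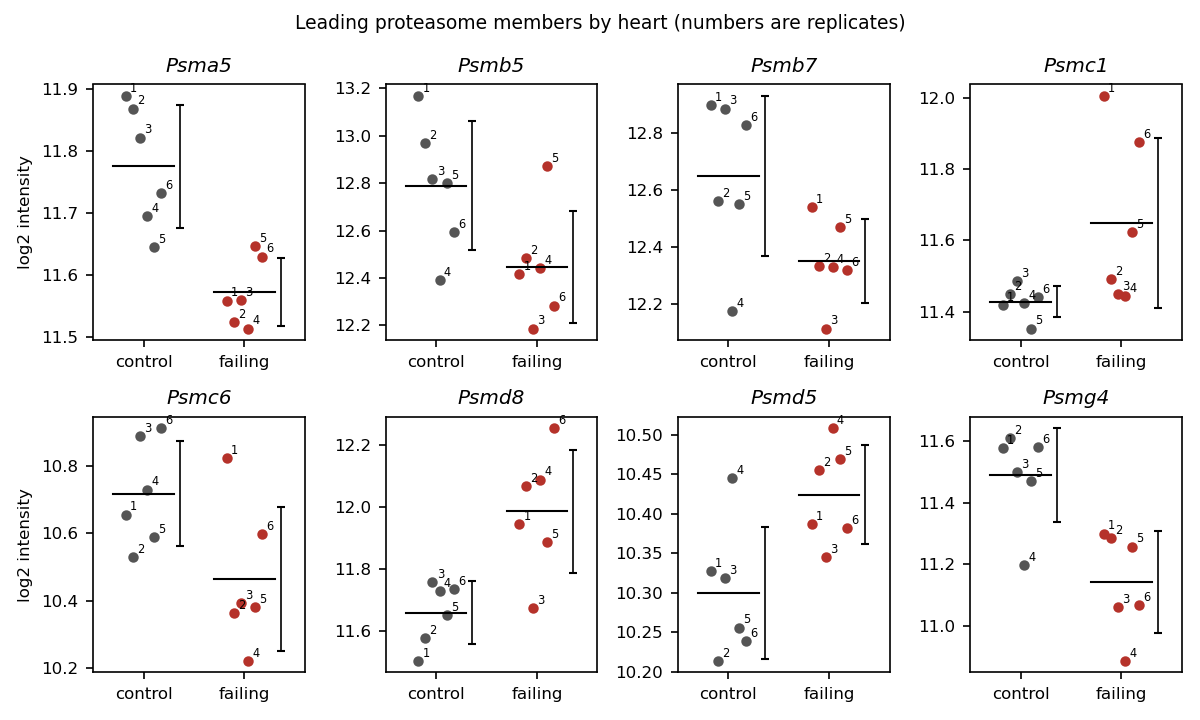
Log2 intensity of the probe sets with the smallest p in each part and direction, where these are brighter, and of the protease subunits Psmb5 and Psmb7, in 6 control and 6 failing hearts. Points are hearts with their replicate numbers, lines are means and bars the SD, and each panel has its own axis. The dim probe sets with the smallest p of their part and direction, of Psmd11 (lower) and Psmb5 (higher), are not drawn. The Psmc6 panel shows probe set 1379850_at; the groups overlap in every panel, and in Psma5 and Psmd8 5 of 6 failing hearts lie beyond every control heart.

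Transcription of proteasome genes is raised by the factors NRF1 (Nfe2l1) and NRF2 (Nfe2l2), which bind antioxidant response elements. The promoters of the member genes were searched for the letters TGACNNNGC on both strands, from 250 bases before to 50 after the start of the gene (RefSeq, assembly GRCr8). Of the 38 member genes 34 had a promoter in the table, Psma7, Psmd6, Psmd12 and Psmd14 being the others. The letters were found in 3 of 12 core promoters, in 2 of 14 regulatory promoters and in 1 of 7 chaperone promoters, against 12.1% of all 33469 promoters, and these windows are shown for the members with a match before the start. They are written on the gene's own strand with the matched letters in capitals.
Psmb5 (chr15:32047406-32047465, minus strand): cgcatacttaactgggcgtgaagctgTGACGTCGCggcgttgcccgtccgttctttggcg
Psmb2 (chr5:144254964-144255023, plus strand): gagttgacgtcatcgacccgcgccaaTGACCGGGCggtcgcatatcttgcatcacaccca
Psma3 (chr6:95219711-95219748, plus strand): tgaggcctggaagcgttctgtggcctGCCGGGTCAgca
Psmd1 (chr9:94157780-94157839, plus strand): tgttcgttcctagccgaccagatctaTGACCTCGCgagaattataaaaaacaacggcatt
Psmd9 (chr12:39018308-39018367, minus strand): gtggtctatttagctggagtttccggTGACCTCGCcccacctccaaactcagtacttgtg
The match began 60 bases before the start in Psmb5, 68 in Psmb2, 12 in Psma3, 165 in Psmd1 and 77 in Psmd9, which holds another one 124 bases before the start. In Psma3 the letters read on the opposite strand, as do those of the Psmd9 match 124 bases before the start. Psmd1 and Psmd3 hold a match after the start, that of Psmd3 on the opposite strand. Outside the members, the promoter of Psmb6 holds a match that begins 24 bases before the start. A match describes the letters in this window only. The core members with a match read -0.34 (Psmb5), -0.21 (Psmb2) and -0.01 (Psma3) in the difference, and those without included Psmb7 (-0.30) and Psma5 (-0.20). The genes of the factors read higher in failing hearts without passing. Nfe2l2 differed by 0.27 ± 0.12 (SE, limma adjusted p = 0.138 among the brighter probe sets), and 3 probe sets of Nfe2l1 by 0.39 ± 0.18, 0.07 ± 0.12 and 0.004 ± 0.15.

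The ATPases Psmc1 to Psmc6 form the unfolding ring of the regulatory particle, and their 8 brighter probe sets divided evenly, 4 below and 4 above 0, with a median of -0.01. Psmc1 lay between 11.44 and 12.004, with a median of 11.56, in failing hearts and between 11.35 and 11.48, with a median of 11.43, in control hearts (log2 intensity). The control hearts were close together, and the failing hearts spread upward from them, with 4 of 6 above the highest control heart. The difference was 0.22 ± 0.12 (SE; limma adjusted p = 0.447 over all probe sets and 0.249 among the brighter ones). Psmc2, Psmc3, Psmc4 and Psmc5 differed by -0.02, 0.01, -0.10 and -0.10 in their brighter probe sets. In Psmc4 the failing hearts lay between 11.44 and 11.55 and the control hearts between 11.52 and 11.66, with 5 of 6 failing hearts below the lowest control heart. A further Psmc4 probe set was dim, at 4.35 (mean log2). Psmc6 depended on the probe set: 1379850_at gave -0.25 ± 0.13, 1382385_at 0.26 ± 0.19 and 1384323_at 0.20 ± 0.13 (SE). The first of these had the smallest p of the ATPases that read lower (limma adjusted p = 0.397 over all probe sets and 0.206 among the brighter ones). It lay between 10.22 and 10.82 in failing and between 10.53 and 10.91 in control hearts (log2 intensity). After the group means were removed, the 3 probe sets of Psmc6 still varied together over the 12 hearts, with Pearson r of 0.417, 0.729 and 0.655, although their differences between the groups had opposite signs. This did not hold for every gene with several brighter probe sets. The same r was 0.808, 0.367 and 0.22 for Psmd14, -0.027 for Psmd7 and -0.249 for Psmd11.

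The non-ATPase subunits scaffold the base and form the lid, and their 15 brighter probe sets lay 8 below and 7 above 0. Psmd8, a lid subunit, had the smallest p among the brighter regulatory probe sets and read higher. It lay between 11.67 and 12.25, with a median of 12.01, in failing hearts and between 11.50 and 11.76, with a median of 11.69, in control hearts (log2 intensity). Failing replicate 3 lay within the control range and the other failing hearts above it. The difference was 0.33 ± 0.12 (SE), or 25.4%, with an interval from 0.07 to 0.59. It did not pass (limma adjusted p = 0.248 over all probe sets and 0.0934 among the brighter ones), and it was the only member higher at an unadjusted p under 0.05. Psmd12, another lid subunit, lay between 11.68 and 12.01, with a median of 11.84, in failing hearts and between 11.75 and 12.33, with a median of 12.18, in control hearts. Its difference of -0.27 ± 0.12 (SE) did not pass either (limma adjusted p = 0.339 over all probe sets and 0.157 among the brighter ones). It is named for its unadjusted p of 0.0478, after its values were seen. Psmd13 and the ubiquitin receptor Psmd4 read higher, at 0.25 ± 0.15 and 0.15 ± 0.12 (SE). The base scaffold Psmd1 read lower at -0.17 ± 0.16, and the other scaffold, Psmd2, gave -0.001 ± 0.12. Psmd3 differed by 0.04 and Psmd6 by -0.17. The deubiquitinase of the lid, Psmd14, had 3 probe sets between -0.15 and 0.08, and Psmd7 had 2, at 0.06 and -0.07. Psmd11, a lid subunit, gave -0.16 and -0.05 in its brighter probe sets. A further Psmd11 probe set, the dim 1380252_at, had the smallest unadjusted p of all members, 0.0101. It read between 1.26 and 3.41, with a median of 2.05, in failing hearts and between 2.77 and 3.91, with a median of 3.35, in control hearts (log2 intensity). At such low intensities the size of a difference is uncertain, so no fold is given, and the limma adjusted p was 0.204.

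The assembly chaperones stay with the particle only while it is built. Their 7 brighter probe sets lay 6 below and 1 above 0, with a median of -0.08. Over all 8 chaperone probe sets the median was -0.06, and it ran from -0.11 without control replicate 5 to -0.03 without control replicate 6; it also moved by over 1.5 times without failing replicate 1 or 5 or control replicate 1. Psmg4, which acts in alpha ring assembly as the partner of Psmg3, had the smallest adjusted p among the brighter members. It lay between 10.89 and 11.30, with a median of 11.16, in failing hearts and between 11.20 and 11.61, with a median of 11.54, in control hearts (log2 intensity). Control replicate 4 was the only control heart within the failing range, and the other control hearts lay at 11.47 or above. The difference was -0.35 ± 0.12 (SE), or -21.3%, with an interval from -0.61 to -0.09. It did not pass (limma adjusted p = 0.225 over all probe sets and 0.0798 among the brighter ones), and it did without control replicate 4 (-0.40, adjusted p = 0.0248). With 1 probe set for each gene the adjusted p was 0.0478 among the brighter genes, and with array weights 0.036, settings under which 4.73% and 4.71% of all brighter features were called lower. Psmg3 itself differed by -0.05 ± 0.14, and the other pair of this step, Psmg1 and Psmg2, by -0.22 ± 0.11 and -0.08 ± 0.13 (SE). Of the chaperones of the ATPase ring, Psmd5 read higher, between 10.34 and 10.51 in failing and between 10.21 and 10.45 in control hearts, a difference of 0.12 ± 0.09 (SE; limma adjusted p = 0.383 among the brighter probe sets). Psmd9 gave -0.16 ± 0.13 in its brighter probe set and 0.23 ± 0.27 in a dim one, and Psmd10 gave -0.01 ± 0.14.

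The values of single hearts were summarised as the median over the brighter probe sets of a part, each centred on its mean over the 12 hearts. For the core particle this median ran from -0.22 in failing replicate 3 to 0.03 in failing replicate 5, and from -0.04 in control replicate 5 to 0.19 in control replicate 1 (log2). All 6 failing hearts lay below the control median and 3 of 6 below the lowest control heart, while failing replicate 5 lay above control replicates 4, 5 and 6. For the regulatory particle the failing hearts ran from -0.13 to 0.12 and the control hearts from -0.09 to 0.10, so the groups overlapped almost fully. The core median minus the regulatory median of the same heart was -0.07 ± 0.06 in failing and 0.06 ± 0.04 in control hearts (mean ± SD, n = 6 each). It ran from -0.15 to 0.007 in failing and from 0.003 to 0.11 in control hearts, and 5 of 6 failing hearts lay below every control heart. This difference uses the same probe sets whose signs by part were read above, so it is no separate support for them. Control replicate 4, among the lowest control hearts for Psmb5, Psmb7 and Psmg4, stood at 0.06 on this difference, amid the other control hearts. The 3' minus 5' signal of the Gapdh and beta-actin control probe sets ran from 0.503 to 0.698 in failing and from 0.36 to 0.778 in control hearts (log2). With it as a covariate, an alternative added after the data were seen, all 13 core probe sets lay below 0 (median -0.19). The part of RNA integrity in the core values was not tested.

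**Figure D3:**
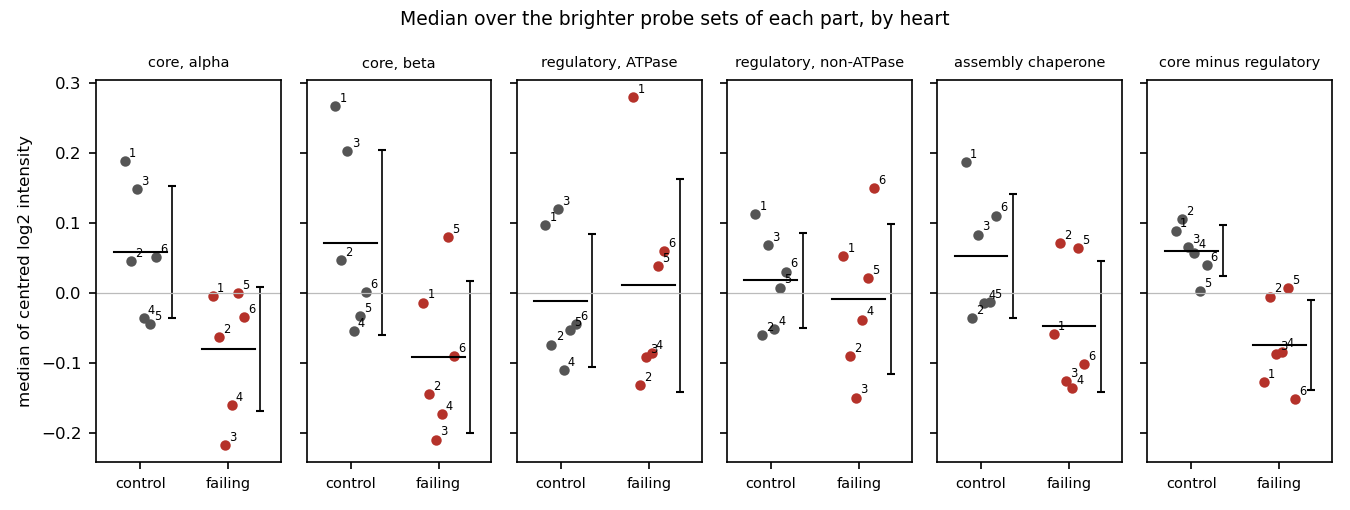
Median of centred log2 intensity over the brighter probe sets of each proteasome part in 6 control and 6 failing hearts, and the core median minus the regulatory median; points are hearts with their replicate numbers, lines are means and bars the SD. In the last panel the control hearts lie between 0.003 and 0.11 and the failing hearts between -0.15 and 0.007.

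Proteasome transcripts varied together among hearts of the same group. After the group means were removed, the median Pearson r over the 78 pairs of core probe sets was 0.54, and 71 of these pairs were above 0. The median was 0.327 over the 299 pairs of a core and a regulatory probe set and 0.33 over the 253 regulatory pairs, against 0.002 over all pairs of brighter probe sets. Over the 91 pairs of a core probe set and a chaperone the median r was 0.186. The chaperones differed among themselves in this: Psmg3, Psmd9 and Psmg4 had a median r with the core of 0.454, 0.448 and 0.433, and Psmg1, Psmd10, Psmd5 and Psmg2 of 0.112 to -0.222. All pairs share the same 12 arrays, so these values describe the hearts and their arrays together. Psma7 had the highest median r with the other core probe sets, 0.647, followed by the ATPase gene Psmc3 at 0.636, whose difference between groups was 0.01 ± 0.10 (SE). At the other end, beside Psmg2, stood Psmd13 (-0.0712). Of the core probe sets themselves, Psma3 had the lowest median r with the others, 0.00616, followed by Psmb2 at 0.248.

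**Figure D4:**
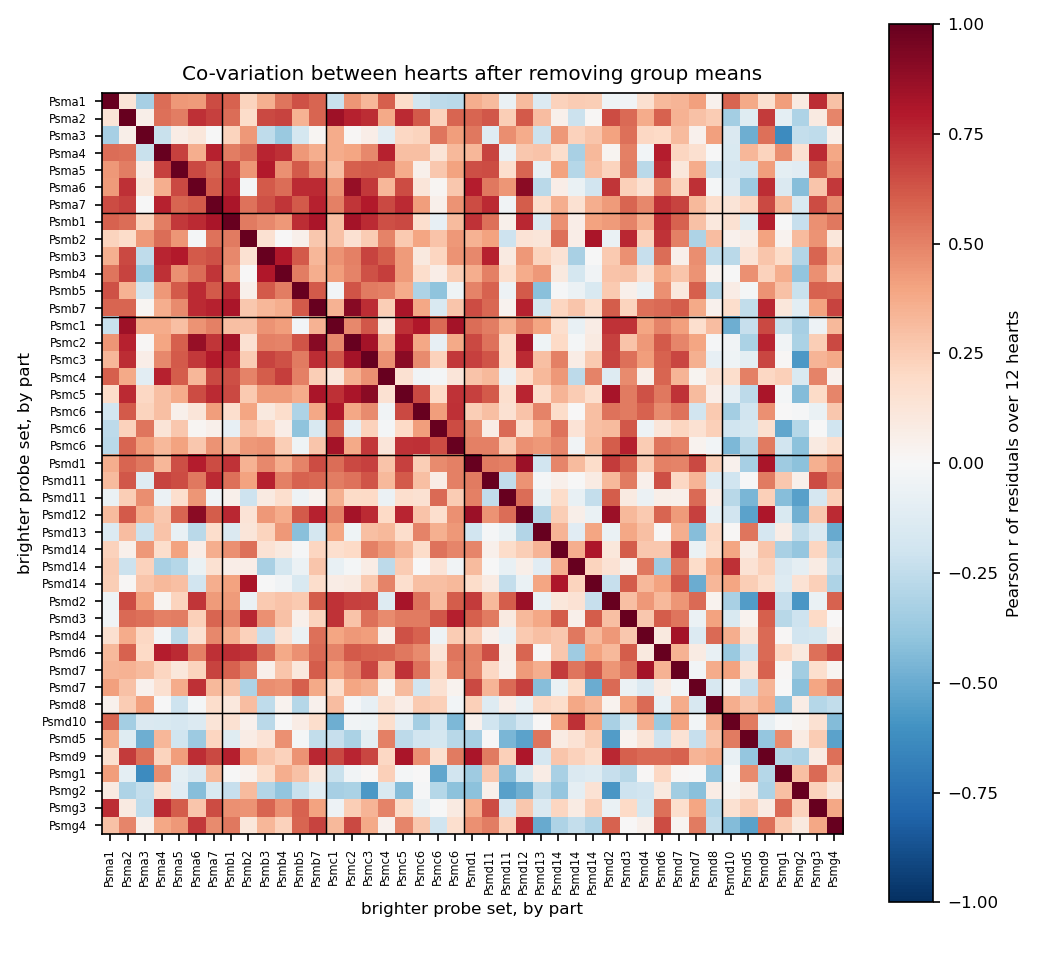
Pearson r between brighter proteasome probe sets over 12 hearts after the group means were removed, ordered by part (core alpha, core beta, ATPase, non-ATPase, chaperone; black lines separate them), with the colour scale from -1 to 1. Most core pairs are positive (71 of 78), as are most pairs of regulatory probe sets (214 of 253).

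Other genes of the pathway were read from 3 lists. Of the inducible subunits and activators, 7 of 8 genes were measured with 10 probe sets, and 0 passed in the limma fits over all or over the brighter probe sets (0 higher and 1 lower at an unadjusted p under 0.05). Their median difference was -0.16, and -0.15 over the 9 brighter ones. Of the 10 probe sets 8 lay below 0, against 52.6% of all probe sets. Psmb8, Psmb9 and Psmb10, which replace the protease subunits in the immunoproteasome, differed by -0.03 ± 0.26, -0.28 ± 0.28 and -0.41 ± 0.21 (SE). The activator subunits Psme1 and Psme2 gave -0.15 ± 0.17 and -0.17 ± 0.14 in their brighter probe sets, and the inhibitor Psmf1 gave 0.16 ± 0.13. The smallest p of this list belonged to a dim Psme1 probe set at -1.33 ± 0.58 (limma adjusted p = 0.322 over all probe sets). The activator Psme4 had 3 probe sets that disagreed, at 0.25 ± 0.12, -0.001 ± 0.12 and -0.37 ± 0.17. Of further regulatory particle parts, assembly factors and bound enzymes, 15 of 18 symbols were measured with 31 probe sets, with a median difference of -0.05, and 0 passed in either limma fit (1 higher and 1 lower at an unadjusted p under 0.05). Pomp, the chaperone of core assembly, differed by -0.17 ± 0.11, and Sem1, Adrm1 and Usp14 by -0.02, -0.08 and -0.05. Of ubiquitin, activating enzyme and control genes, 9 of 14 symbols were measured with 17 probe sets. Their median was 0.04, and 0 passed in either limma fit (2 higher and 1 lower at an unadjusted p under 0.05). Ddi2, the protease that activates NRF1, had the smallest p, at -0.34 ± 0.13 (SE; limma adjusted p = 0.101 among the brighter probe sets). The segregase Vcp gave -0.001 ± 0.11 and the activating enzyme Uba1 0.06 ± 0.10.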

How the data were processed

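Per the labels' protocols, biotin-labelled cRNA was made from 6 µg of heart RNA and hybridised to 1-colour arrays. The authors deposited linear intensity values of 31099 probe sets. The submitters' processing notes name RMA without a version, but the values are linear and scaled to 1 trimmed mean, so the summary method stays unknown; such scaling hides a shift of most genes. The array annotation names 20826 probe sets with 1 symbol, 436 with several and 9780 with none. No detection calls or batches were used.

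Here the 57 control probe sets were left out, log2 was taken of the intensity without an offset, and the groups named in the titles were fitted by limma 3.58.1 (lmFit, eBayes; R 4.3.3) on group alone, two-sided. P-values were adjusted after Benjamini and Hochberg, and 0.05 was the threshold. A probe set is brighter when its mean over all 12 arrays is at least the median of 6.94 (intensity 123). Differences are failing minus control; a difference is written as having passed only under the adjusted threshold. All 38 member genes matched RefSeq (GRCr8) by gene identifier. Promoters come from RefSeq too. The code was tested on simulated data. Figures were drawn with matplotlib 3.10.9.

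The members, lists and tests were chosen with earlier results of these data known. Named in full are members that were called or without overlap (none), the protease subunits, and the smallest p in each direction for each part. Of the 3 pathway lists every called gene, the smallest p and set activators, inhibitors and control genes are named. The number of arrays limits the precision. Each limma p-value weighs the difference between groups against the spread between these hearts, which limma draws toward that of all fitted probe sets.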

Additional observations from a re-analysis of the deposited data

Results flagged for a closer look

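A heart far from the other 5 of its group was found in 2 of 40 group comparisons of named members and part medians; chance gives about 1 in 20. Control replicate 4 read 11.2 for Psmg4 (log2 intensity), where the next control heart was at 11.47. The same heart read 3.15 in the dim Psmb5 probe set 1385532_x_at, the next control heart being at 5.58.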

How the results depend on the processing

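The core and regulatory medians moved by less than the spread between hearts under every alternative tried. The core median ran from -0.23 (without control replicate 5) to -0.13 (without control replicate 1) with 1 heart left out. Of the 13 brighter core probe sets 13 lay below 0 under quantile normalization, median centring and the offset of 32, and 12 or 13 whichever heart was left out; of the 23 regulatory ones 10 to 13 did. No member was called over all probe sets under any alternative; the share called of all probe sets was 1.82% with a mean-variance trend, 1.77% with trend and robust fitting, 0.515% without failing replicate 5, 0.148% with the offset of 32 and at most 0.0129% otherwise. Among the brighter probe sets 1 was called lower with 1 probe set a gene, with array weights and with the filter at the 75th percentile (Psmg4 each time), where the share of all brighter probe sets called lower rose from 1.48% to 4.73%, 4.71% and 5.24%. At a threshold of 0.1, 1 was called higher (Psmd8) and 1 lower (Psmg4), against 6.53% and 5.28% of all brighter probe sets. Leaving out 1 heart gave 0 to 3 lower calls, the 3 (Psmb7, Psmg4 and Psmd12) without control replicate 4, where 6.75% of brighter probe sets were called lower, and 0 higher calls. At an unadjusted p under 0.05, where the main counts were 1 higher and 3 lower (7.25% and 7.23% of all probe sets), the lower count was 5 with 1 probe set a gene (9.95% of all), 8 with a mean-variance trend (8.32%), 9 with trend and robust fitting (8.29%), 7 with array weights (8.71%) and 9 by the exact rank-sum permutation test (7.33%). The higher count was 2 with the trend (8.3% of all) and 3 by the permutation test (6.84%). Leaving out 1 heart gave 1 to 2 higher and 2 to 6 lower, with 2 and 6 without control replicate 4 (9.07% and 9.25% of all probe sets). The cause was not tested. Psmc3ip ran from -0.144 to 0.081 with 1 heart left out, and lay above 0 without control replicate 3 (0.081) or 6 (0.017). Replicate numbers are shared by the groups, but same-numbered hearts did not vary together in general (r of residuals from -0.0602 to 0.232, over 0.1 in 1 of 6 pairs). With the replicate block 0 members were higher and 3 lower at an unadjusted p under 0.05, and 0 were called.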

Other observations

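Single probe sets of 1 gene disagreed in several other pathway genes. Ecpas, a scaffold that binds the proteasome, had 6 probe sets, from -0.76 ± 0.45 in a dim one, below the level that counts as brighter, to 0.59 ± 0.42 (log2 difference ± SE); the brightest of them gave -0.01 ± 0.13, and 1 at -0.46 ± 0.20 had the smallest p (limma adjusted p = 0.137 among the brighter probe sets). Rad23b, a shuttle for ubiquitinated proteins, gave 0.86 ± 0.33 in probe set 1391491_a_at (limma adjusted p = 0.105 among the brighter probe sets) and -0.08 ± 0.11 in the other.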
